A study of Homo sapiens with 12 samples.

Results

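The genes described here are 10 secreted cytokines: the interleukin-1 (IL-1) family genes IL1A, IL1B, IL1RN and IL18, the IL-6 family genes IL6 and LIF, the growth factor gene CSF1, and the chemokine genes CXCL1, CXCL2 and CXCL3. They were selected by symbol from the 26475 gene symbols of the table, and all 10 were found. The list was chosen on measured values of these libraries, namely the difference between BAY-850 and DMSO in SK-OV-3, so that difference is given as a description with no test. The difference in PA-1 and the difference between the lines in DMSO were tested, although the second reuses the SK-OV-3 DMSO libraries and the list was made with earlier results of all these libraries known. RNA-seq was made from a pair of human ovarian cancer lines, PA-1 (an ovarian teratocarcinoma line, grown in DMEM) and SK-OV-3 (an ovarian adenocarcinoma line, grown in RPMI), each treated for 48 h with 5 µM BAY-850, an inhibitor of the bromodomain of the chromatin protein ATAD2, or with DMSO, the vehicle. The 4 groups (PA-1 DMSO, PA-1 BAY-850, SK-OV-3 DMSO and SK-OV-3 BAY-850) held 3 libraries each, which the submitters call biological replicates. No gene was engineered in any group, and each tumour type was represented by 1 line.

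IL-1α (from IL1A) and IL-1β (from IL1B) bind the same receptor, IL1R1 with its partner IL1RAP, and switch on NF-kB and AP-1 through MYD88 and the IRAK kinases. The protein of IL1RN occupies IL1R1 without signalling, and IL1R2 is a decoy receptor. IL-1 signalling is known to raise mRNAs of IL6, CXCL1 to CXCL3 and CXCL8 in epithelial and stromal cells. IL-1β and IL-18 are made as precursors that caspase-1 cleaves, whereas the IL-1α precursor is already active. CSF1 drives macrophage survival through CSF1R, IL-6 and LIF signal through the shared chain IL6ST, and the CXCL chemokines attract neutrophils.

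RefSeq start regions were available for 7 of the 10 genes in build GRCh38.p14, with IL18, LIF and CSF1 not matched. The 200 bases before the first listed start are shown for 6 genes. The 3 CXCL genes were taken because they are closely related copies with very different levels in the lines. IL1A, IL1B and IL6 were taken because IL6 was lower with BAY-850 in SK-OV-3, whereas IL1A and IL1B were higher. Sequences run 5′ to 3′ on the strand of the gene, and position -1 is the last base before the start. Capitals mark matches to the NF-kB type motif GGNNTTTCC or the AP-1 type motif TGANTCA on either strand. The windows lie at chr4:73869193-73869392 (plus strand, CXCL1), chr4:74099196-74099395 (minus strand, CXCL2), chr4:74038690-74038889 (minus strand, CXCL3), chr7:22727000-22727199 (plus strand, IL6), chr2:112784494-112784693 (minus strand, IL1A) and chr2:112836780-112836979 (minus strand, IL1B).
CXCL1: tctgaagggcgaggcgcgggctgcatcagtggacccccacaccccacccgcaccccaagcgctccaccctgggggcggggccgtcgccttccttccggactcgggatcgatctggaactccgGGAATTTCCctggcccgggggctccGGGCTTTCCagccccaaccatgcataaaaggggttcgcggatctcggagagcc
CXCL2: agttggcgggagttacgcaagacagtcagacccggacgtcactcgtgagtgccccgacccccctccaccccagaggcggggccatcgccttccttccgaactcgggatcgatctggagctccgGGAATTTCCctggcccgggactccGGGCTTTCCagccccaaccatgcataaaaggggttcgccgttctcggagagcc
CXCL3: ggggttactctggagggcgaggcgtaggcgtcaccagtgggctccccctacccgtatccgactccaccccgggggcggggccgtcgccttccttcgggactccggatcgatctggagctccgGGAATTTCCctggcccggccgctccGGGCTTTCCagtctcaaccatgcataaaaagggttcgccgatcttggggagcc
IL6: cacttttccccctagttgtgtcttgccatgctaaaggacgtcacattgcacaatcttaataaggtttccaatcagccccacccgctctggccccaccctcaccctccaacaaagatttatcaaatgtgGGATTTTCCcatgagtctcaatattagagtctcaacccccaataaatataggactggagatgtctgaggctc
IL1A: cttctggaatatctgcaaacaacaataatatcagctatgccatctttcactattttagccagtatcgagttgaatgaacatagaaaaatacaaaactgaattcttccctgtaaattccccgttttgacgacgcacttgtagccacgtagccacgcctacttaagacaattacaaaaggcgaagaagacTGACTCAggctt
IL1B: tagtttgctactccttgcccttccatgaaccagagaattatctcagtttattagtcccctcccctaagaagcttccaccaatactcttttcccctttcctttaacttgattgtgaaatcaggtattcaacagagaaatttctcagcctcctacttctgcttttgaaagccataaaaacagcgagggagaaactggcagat

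The 3 CXCL stretches each held the NF-kB type motif 2 times, with the same letters, at -78 and -53 in CXCL1 and CXCL3 and at -77 and -53 in CXCL2. Their 200-base stretches were 77.4% to 80.8% identical to each other in a global alignment, against 48.6% for CXCL1 and IL6. IL6 held the NF-kB type motif once, at -72, and IL1A held the AP-1 type motif at -12. A further AP-1 type match lay at 39 past that IL1A start, outside the printed stretch. Counted from a second IL1A start, which is not printed, the same matches lay at -105 and -55. IL1B held neither in its window, and none of the 10 windows of the 7 genes held the C/EBP-ATF type motif TGATGNAA. IL1RN, whose windows are not printed, held an AP-1 type match at -223 of its first start and an NF-kB type match at -96 of another start. Of all 35116 start windows of 300 bases (250 before the start and 50 after), 6.26% held the NF-kB type motif, 7.71% the AP-1 type motif and 3.62% the C/EBP-ATF type motif. A match is a description of letters only.

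The libraries held 34544505 to 51840233 expected counts, of which ribosomal RNA genes took 7.94% to 16.9%. SK-OV-3 BAY-850 replicate 3 was the deepest library and had a count for 15629 genes, against 17425 to 18414 in the other libraries. Leaving that library out moved the SK-OV-3 log2 fold change of the 10 cytokines by 0.022 to 0.120. Levels are given as CPM, the count a gene would have in a library of 1000000 counts, after TMM scaling over all 12 libraries. The line labels were checked with marker genes: LIN28B, SALL4, POU5F1, SOX2, DNMT3B and L1TD1 summed to 729 to 898 CPM in the PA-1 libraries, to 36.1 to 40.8 CPM in SK-OV-3 DMSO and to 78.6 to 81.3 CPM in SK-OV-3 BAY-850, where DNMT3B averaged 31.5 and 70.6 CPM. L1TD1 was low in both lines, with means of 0.448 CPM in PA-1 DMSO and 0.0602 CPM in SK-OV-3 DMSO. The SK-OV-3 markers ERBB2, KRT7, KRT19, PAX8 and MUC1 summed to 75.5 to 82.7 CPM in PA-1 DMSO and 90.0 to 96.5 CPM in PA-1 BAY-850. In SK-OV-3 they summed to 3416 to 3773 CPM in DMSO and to 2565 to 2997 CPM with BAY-850. PAX8 went against that sum, with means of 223 CPM in SK-OV-3 DMSO and 324 CPM in SK-OV-3 BAY-850. Both sums thus moved with BAY-850 in SK-OV-3, the line in which the cytokines differed, and the sum of the SK-OV-3 markers also moved in PA-1. The part of these shifts in the cytokine values was not tested. As white blood cells make many of these cytokines, 10 leukocyte markers were summed as well, and they gave 0.570 to 1.41 CPM in every library. PTPRC (CD45) had 0 counts in the PA-1 libraries and at most 4 in a SK-OV-3 library, and MS4A1 had 0 in all 12. Other markers reached more, up to 32 counts (0.596 CPM) for CD163 and 27 (0.503 CPM) for FCER1G in a SK-OV-3 BAY-850 library. AIF1 reached 17 counts in a PA-1 DMSO library. In bulk RNA, fewer cells of a type and less RNA per cell cannot be told apart.

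The summed level of the cytokine set was far higher in SK-OV-3 than in PA-1, and in SK-OV-3 the genes differed unevenly between BAY-850 and DMSO. The 10 genes summed to 52.4 to 56.4 CPM in PA-1 DMSO and 56.5 to 57.4 CPM in PA-1 BAY-850, and to 660 to 664 CPM in SK-OV-3 DMSO and 862 to 872 CPM in SK-OV-3 BAY-850. CXCL1 alone averaged 357 CPM in SK-OV-3 DMSO, where the sum averaged 661 CPM. The difference between the lines in DMSO ranged from 1.59-fold for CXCL3 to 1013-fold for CXCL1. In SK-OV-3, IL1A, IL1B, IL1RN, IL18 and CSF1 were above DMSO in every BAY-850 library, LIF, CXCL2 and CXCL3 overlapped, and IL6 and CXCL1 were below DMSO in every BAY-850 library. In PA-1, no cytokine of the set passed the threshold of an adjusted p of 0.05 in edgeR. Of the 7 tested, 2 were under 0.05 before adjustment and 2 were called by DESeq2. The shares of all genes at those criteria were not counted.

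**Figure D1:**
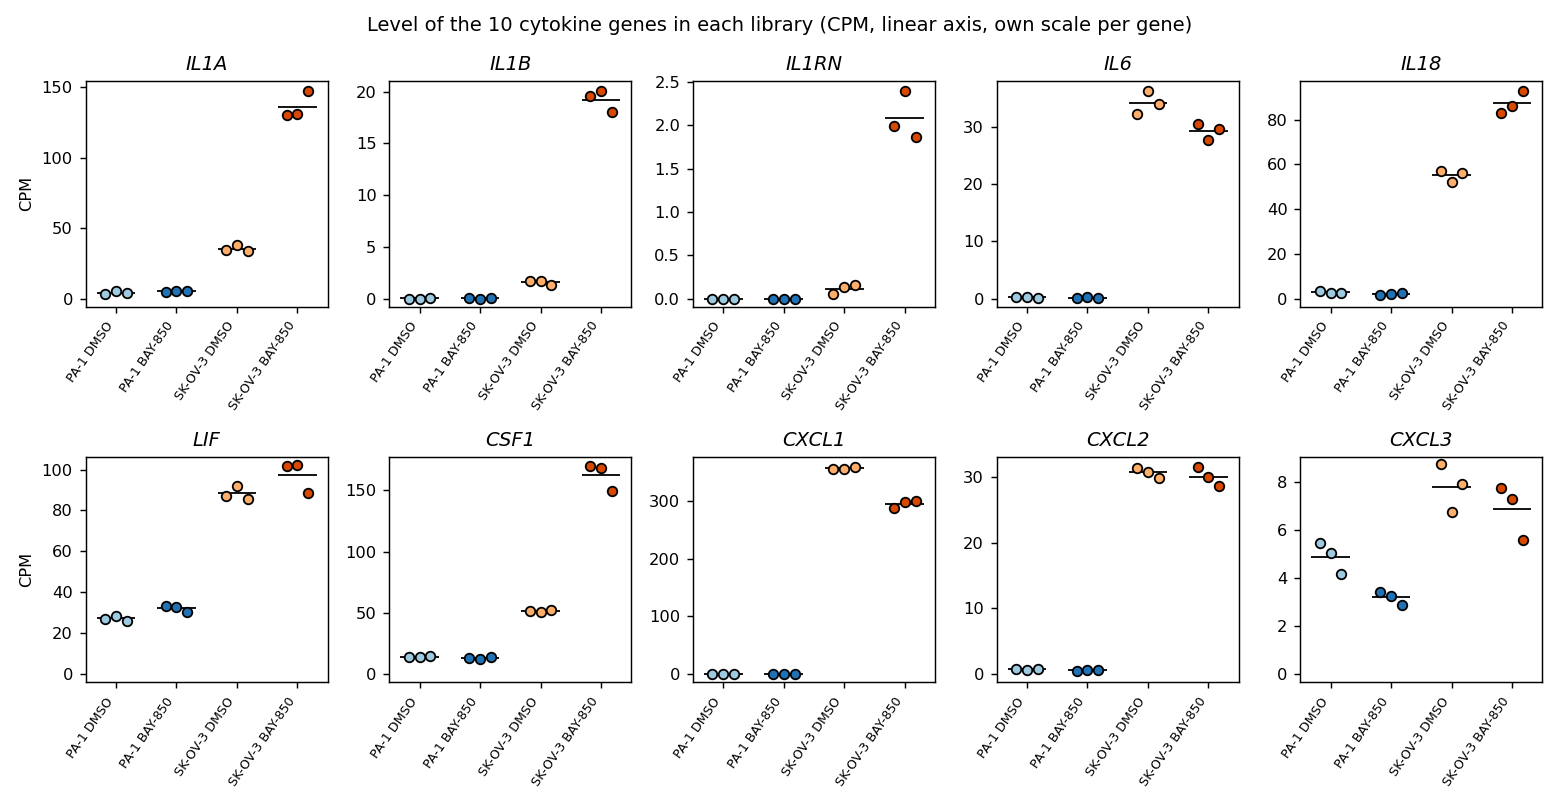
Level of each of the 10 cytokine genes (CPM, linear axis with its own scale per gene) in the 12 libraries, with 1 point per library and a line at the mean of each group of 3. IL1A, IL1B, IL1RN, IL18 and CSF1 sit higher in the SK-OV-3 BAY-850 libraries than in the other 9 libraries, whereas CXCL1 is lower there than in SK-OV-3 DMSO.

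IL1A (chromosome 2, 112773915 to 112784590, minus strand; coordinates of genes are GENCODE v29 on hg38) measured 3.30, 5.45 and 3.85 CPM in PA-1 DMSO and 4.97, 5.54 and 5.00 CPM in PA-1 BAY-850. In SK-OV-3 it measured 34.6, 37.8 and 33.5 CPM in DMSO and 130, 131 and 147 CPM with BAY-850. All SK-OV-3 BAY-850 libraries were above all SK-OV-3 DMSO libraries, whereas the PA-1 groups overlapped. The log2 fold change with BAY-850 was 1.96 in SK-OV-3 (SE 0.0789, a 3.90-fold difference), given as a description, and 0.29 in PA-1 (SE 0.192, 95% interval -0.11 to 0.70). The PA-1 difference did not pass the quasi-likelihood test of edgeR, with an adjusted p of 0.384 after Benjamini-Hochberg correction over the 15212 genes tested.

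IL1B (chromosome 2, 112829751 to 112836903, minus strand) was barely detected in PA-1, with 0, 0 and 1 counts in DMSO and 2, 0 and 2 counts with BAY-850. It measured 1.71, 1.67 and 1.30 CPM in SK-OV-3 DMSO and 19.6, 20.01 and 18.02 CPM in SK-OV-3 BAY-850. The SK-OV-3 groups did not overlap, and the log2 fold change was 3.63 (SE 0.152, a 12.4-fold difference), given as a description. Within a SK-OV-3 library, IL1B counts were 3.87% to 4.94% of IL1A counts in DMSO and 12.2% to 15.3% with BAY-850. IL1B was under the filter on low counts in PA-1 and was not tested there.

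IL1RN (chromosome 2, 113107214 to 113134016, plus strand), the receptor antagonist, had 0 counts in all 6 PA-1 libraries, which allows a level of up to 0.0868 CPM in PA-1 DMSO replicate 1, the library with the highest floor after scaling (3 counts). In SK-OV-3 DMSO it had 2, 5 and 6 counts, and in SK-OV-3 BAY-850 it had 81, 101 and 100 counts, or 1.99, 2.39 and 1.86 CPM. The groups did not overlap, and the pooled counts, 13 against 282, gave a ratio of 18.4 after scaling, given as a description. Per kb of exon, IL1RN was the lowest of the 10 cytokines in both SK-OV-3 groups, with 0.901 CPM per kb in SK-OV-3 BAY-850 against 64.1 for IL1A and 11.8 for IL1B.

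IL18 (chromosome 11, 112143251 to 112164117, minus strand) measured 57.2, 52.1 and 56.2 CPM in SK-OV-3 DMSO and 82.8, 86.1 and 92.7 CPM in SK-OV-3 BAY-850. The groups did not overlap, with a log2 fold change of 0.67 (SE 0.0709) as a description. In PA-1 it measured 3.33, 2.26 and 2.66 CPM in DMSO and 1.48, 1.85 and 2.60 CPM with BAY-850, which overlapped. The PA-1 log2 fold change was -0.47 (95% interval -1.04 to 0.10, adjusted p = 0.314 in edgeR).

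CSF1 (chromosome 1, 109910242 to 109930992, plus strand) measured 51.8, 50.6 and 52.7 CPM in SK-OV-3 DMSO and 170, 168 and 149 CPM in SK-OV-3 BAY-850. Its groups lay far apart, and the log2 fold change of 1.66 (SE 0.0598, a 3.16-fold difference) is a description. In PA-1 it measured 14.3, 13.8 and 14.6 CPM in DMSO and 13.6, 12.7 and 14.0 CPM with BAY-850. The PA-1 groups overlapped, and the log2 fold change was -0.08 (95% interval -0.29 to 0.13, adjusted p = 0.663 in edgeR).

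IL6 (chromosome 7, 22725884 to 22732002, plus strand) measured 32.2, 36.2 and 34.03 CPM in SK-OV-3 DMSO and 30.5, 27.8 and 29.6 CPM in SK-OV-3 BAY-850. Each BAY-850 library was below each DMSO library, with a log2 fold change of -0.21 (SE 0.0815) as a description. PA-1 had 11, 13 and 2 counts of IL6 in DMSO and 4, 8 and 3 counts with BAY-850, under the filter, and it was not tested there.

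LIF (chromosome 22, 30240447 to 30246851, minus strand), best known for keeping stem cells undifferentiated, was the highest of the 10 per kb of exon in PA-1. It measured 27.0, 28.6 and 25.9 CPM in PA-1 DMSO and 33.2, 32.7 and 30.4 CPM in PA-1 BAY-850. Each PA-1 BAY-850 library was above each DMSO library, but the difference (log2 0.24, 95% interval 0.09 to 0.39) missed the threshold in edgeR with an adjusted p of 0.0581. In SK-OV-3 it measured 87.0, 92.2 and 85.8 CPM in DMSO and 102, 102 and 88.7 CPM with BAY-850, which overlapped, with a log2 fold change of 0.16 as a description.

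CXCL1 (chromosome 4, 73869393 to 73871242, plus strand) was the highest of the set per kb of exon in SK-OV-3, with 356, 355 and 359 CPM in DMSO and 288, 298 and 300 CPM with BAY-850. The BAY-850 libraries were all lower, by a log2 fold change of -0.26 (SE 0.0463) as a description. In PA-1 it had 13, 14 and 13 counts in DMSO and 6, 17 and 31 counts with BAY-850, a wide spread around a log2 fold change of 0.40 (95% interval -0.88 to 1.68, adjusted p = 0.740 in edgeR). The sign of that PA-1 value rests on PA-1 BAY-850 replicate 3, without which it was -0.28. That library had the highest ribosomal RNA share of the 12 (16.9%), whose part in the result was not tested.

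CXCL2 (chromosome 4, 74097035 to 74099293, minus strand) measured 31.4, 30.8 and 29.9 CPM in SK-OV-3 DMSO and 31.5, 30.03 and 28.7 CPM in SK-OV-3 BAY-850. The groups overlapped, with a log2 fold change of -0.017 as a description. In PA-1 it measured 0.839, 0.621 and 0.736 CPM in DMSO and 0.436, 0.584 and 0.684 CPM with BAY-850, also overlapping, with an adjusted p of 0.655 in edgeR.

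CXCL3 (chromosome 4, 74036589 to 74038807, minus strand) had the highest level per kb of the 3 CXCL genes in PA-1. It measured 5.47, 5.06 and 4.16 CPM in PA-1 DMSO and 3.42, 3.28 and 2.89 CPM in PA-1 BAY-850. Each BAY-850 library was lower, but the log2 fold change of -0.61 (95% interval -0.996 to -0.227) missed the threshold in edgeR with an adjusted p of 0.0547. In SK-OV-3 the groups overlapped, with 8.78, 6.75 and 7.93 CPM in DMSO and 7.77, 7.32 and 5.60 CPM with BAY-850.

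The counts of CXCL1, CXCL2 and CXCL3 were not whole in 6, 10 and 10 of the 12 libraries, because RSEM shares reads that match several copies, so how their reads were divided is uncertain. The other 7 cytokines had whole counts in every library.

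**Figure D2:**
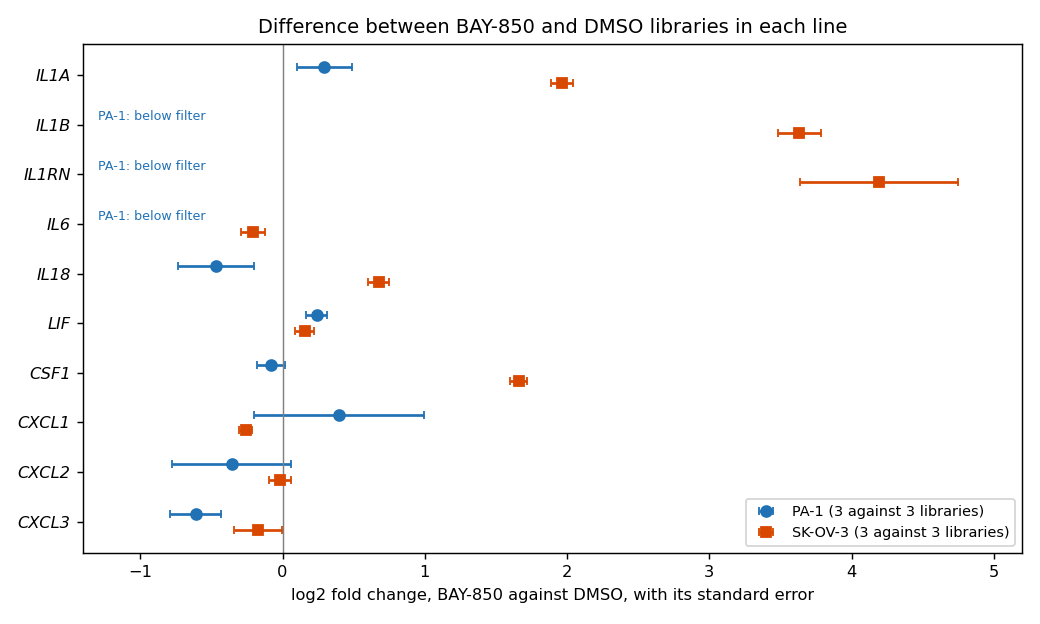
Log2 fold change of BAY-850 against DMSO for each cytokine gene, with its standard error from edgeR, in PA-1 (circles) and SK-OV-3 (squares), 3 against 3 libraries each. IL1B (3.63), IL1RN (4.19), IL1A (1.96) and CSF1 (1.66) lie far to the right in SK-OV-3, whereas the PA-1 values that could be fitted lie between -0.61 and 0.40.

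In PA-1, 7 of the 10 cytokines passed the filter and none passed the threshold in either direction by edgeR, where 4.65% of the 15212 genes tested were higher and 2.48% lower. LIF and CXCL3 had an unadjusted p under 0.05, and DESeq2 called both (adjusted p = 0.0435 and 0.0247). The shares of all genes under 0.05 before adjustment or called by DESeq2 were not counted, so nothing is read from these calls. Of the 7, 1 was higher in every BAY-850 library and 1 was lower in every one, against 14.1% and 13.3% of all genes tested. In SK-OV-3, 5 of the 10 did not overlap in the higher direction and 2 in the lower, where 18.1% and 20.5% of all genes tested did so. As the genes were chosen on that comparison, nothing is read from the SK-OV-3 shares.

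The comparison between the lines asked which of these cytokine mRNAs differed between the vehicle-treated lines. In the DMSO libraries, 7 of the 10 cytokines passed the filter on low counts in both lines, and these 7 were each higher in SK-OV-3 than in PA-1, where 40.1% of the 16070 genes tested were higher in SK-OV-3 and 40.2% lower. IL1B and IL6 were under the filter within PA-1 and passed it here only through SK-OV-3, where they are high, so they are described with no test, and IL1RN was not tested. Line and culture medium cannot be told apart.

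The CXCL1 level was 357 CPM ± 1.97 (SD, n = 3) in SK-OV-3 against 0.351 ± 0.0357 in PA-1, a log2 difference of 9.98 (SE 0.0931, adjusted p = 1.30e-15 in edgeR). CXCL2 (5.40, SE 0.139), IL18 (4.34, SE 0.122) and IL1A (3.05, SE 0.152) were intermediate on the log2 scale. CSF1 (1.86, SE 0.0722) and LIF (1.69, SE 0.0657) differed less, and CXCL3 had the smallest log2 difference of the 7 (0.67, SE 0.173, adjusted p = 0.00319). Across 14 alternative settings each of the 7 differences kept its sign and an adjusted p of at most 0.0150. These p-values reuse the SK-OV-3 DMSO libraries, and the genes were chosen with earlier results of these libraries known.

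IL6 averaged 0.221 CPM ± 0.143 in PA-1 DMSO and 34.1 CPM ± 2.01 in SK-OV-3 DMSO. IL1B had 1 count over the 3 PA-1 DMSO libraries and 181 over the 3 SK-OV-3 DMSO libraries, a ratio of 179 with an exact binomial 95% interval of 31.8 to 7118 that covers counting error only.

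Set per kb of exon, the order of the genes differed between the lines. In PA-1 DMSO, LIF (6.85 CPM per kb) came first, then CXCL3 (4.55), CSF1 (2.91), IL18 (2.35) and IL1A (1.98), of which CSF1, IL18 and IL1A overlapped with their neighbours in that order. In SK-OV-3 DMSO, CXCL1 (325 CPM per kb) came first, then IL18 (47.2), CXCL2 (25.2), LIF (22.3), IL6 (19.9), IL1A (16.6), CSF1 (10.6), CXCL3 (7.27), IL1B (0.955) and IL1RN (0.0487), and no 2 neighbours overlapped. In SK-OV-3 BAY-850, IL1A (64.1) and CSF1 (33.2) took places 3 and 4, above CXCL2 (24.7) and LIF (24.6), which overlapped.

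The CXCL genes of chromosome 4 fell into a different pattern in each line. CXCL1 took 89.8% to 90.5% of the summed CXCL1, CXCL2 and CXCL3 counts in SK-OV-3 DMSO, but 5.19% to 6.99% in PA-1 DMSO, where CXCL3 took 79.0% to 84.3%. With BAY-850, CXCL1 took 88.0% to 89.7% in SK-OV-3 and 3.64% to 18.6% in PA-1. The exons of the 3 genes have similar total lengths, 1075 to 1218 bases.

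The other genes of the same chromosome 4 cluster divided in a similar way. CXCL8 (chromosome 4, 73740506 to 73743716), a neutrophil chemokine, measured 163, 169 and 165 CPM in SK-OV-3 DMSO and 0, 4 and 10 counts in PA-1 DMSO. CXCL5 and CXCL6, which bind the same receptor family, were the reverse. CXCL6 averaged 10.6 CPM in PA-1 DMSO and 0.676 CPM in SK-OV-3 DMSO, and CXCL5 averaged 8.10 and 0.130 CPM. These differences between the lines were picked out after the values were seen and are described with no test.

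With BAY-850, CXCL8 rose in SK-OV-3 to 271, 276 and 282 CPM (log2 0.75, SE 0.0497, adjusted p = 1.83e-06, edgeR), in the same libraries in which CXCL1 was lower. CXCL6 fell in PA-1 from 10.8, 8.47 and 12.4 CPM to 7.57, 7.57 and 7.08 CPM (log2 -0.51, SE 0.143, adjusted p = 0.0447), a call that was lost in 8 of 14 alternative settings, among them leaving out any PA-1 library but DMSO replicate 2. CXCL8 and CXCL6 belong to a list chosen with earlier results of these libraries known, so their p-values are descriptive. CXCL5 counts are in part fractional, as are those of CXCL1 to CXCL3.

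**Figure D3:**
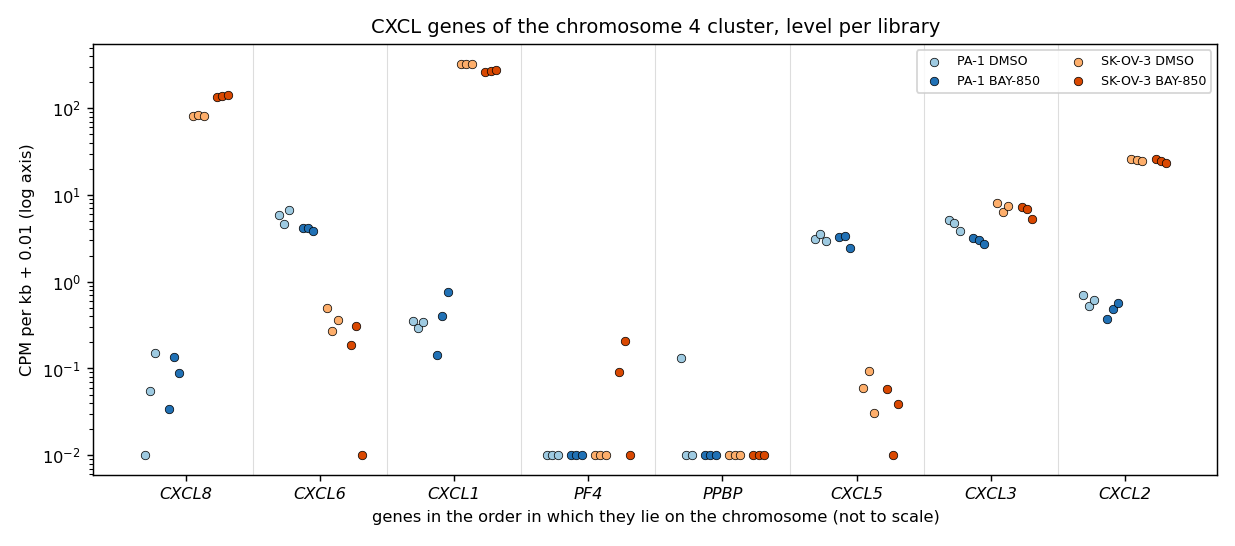
Level (CPM per kb of exon plus 0.01, log axis) of 8 CXCL genes in chromosomal order, with 1 point per library in the 4 groups. CXCL8, CXCL1 and CXCL2 are higher in every SK-OV-3 library than in any PA-1 library, CXCL6 and CXCL5 are the reverse, CXCL3 is closest between the lines, and PF4 and PPBP are at or near 0.

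Chromosome 2 holds further IL-1 family genes between IL1B and IL1RN. IL36B (113022091 to 113052867), a relative of IL-1 that signals through its own receptor, had 0 counts in the 3 SK-OV-3 DMSO libraries and 34, 37 and 21 counts in the BAY-850 libraries, a level at least 8.84-fold higher than the floor of 3 counts in the shallowest DMSO library allows. IL36RN (113058638 to 113065382), the antagonist of that receptor, went from 0 in each DMSO library to 26, 43 and 61 counts, at least 11.7-fold higher. Both had 0 counts in PA-1. They passed the filter only through the SK-OV-3 BAY-850 libraries and were named after their values were seen, so they are described with no test. Both still enter the counts of list genes given below.

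IL36G, another agonist gene, had 10, 15 and 6 counts in SK-OV-3 DMSO and 1, 4 and 0 with BAY-850, and it was under the filter. IL37 had 3 to 4 counts in SK-OV-3 DMSO and 4, 14 and 0 with BAY-850. IL36A and IL1F10 had 0 counts in all 12 libraries.

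**Figure D4:**
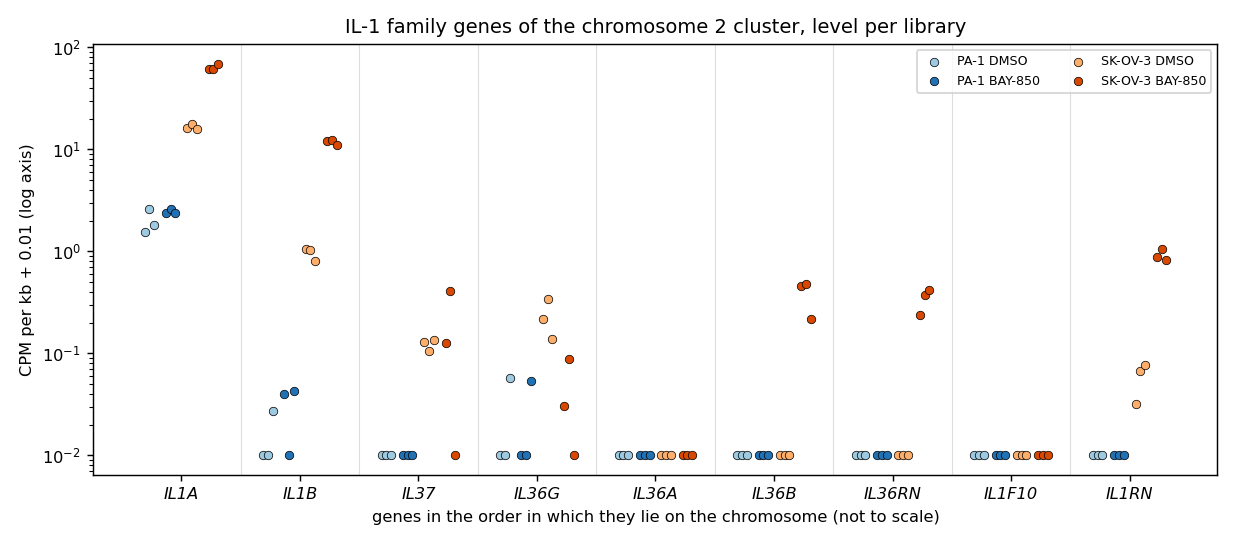
Level (CPM per kb of exon plus 0.01, log axis) of 9 IL-1 family genes of chromosome 2 in chromosomal order, with 1 point per library in the 4 groups. IL1A, IL1B, IL36B, IL36RN and IL1RN are highest in SK-OV-3 BAY-850, and points at the foot of the axis are libraries with 0 counts.

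Among the receptors, IL1R1, the signalling receptor of IL-1, averaged 70.4 CPM ± 3.92 in SK-OV-3 DMSO and 72.1 CPM ± 4.57 with BAY-850 (log2 0.047, 95% interval -0.098 to 0.193, adjusted p = 0.670, edgeR). In PA-1 it had 0 to 16 counts a library. Its partner IL1RAP passed the threshold in neither line, with 34.2 and 35.9 CPM in PA-1 and 38.6 and 34.6 CPM in SK-OV-3.

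In SK-OV-3, BAY-850 libraries had less of the decoy IL1R2, 3.16 CPM ± 0.264 against 6.10 ± 0.784 (log2 -0.93, SE 0.194, adjusted p = 0.00596, edgeR). The IL-33 receptor IL1RL1 was lower too, 9.30 CPM ± 0.871 against 15.4 ± 1.11 (log2 -0.72, SE 0.120, adjusted p = 0.00160), although its annotated span overlaps that of IL18R1 on the same strand. Both calls were lost when all 12 libraries entered 1 fit. These were the 2 of 10 tested receptors and decoys that changed in SK-OV-3, and 0 of 7 passed in PA-1 by edgeR. Of those 7, IL18BP and LIFR had an unadjusted p under 0.05, and DESeq2 called 1, IL18BP. The shares of all genes at these criteria were not counted.

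The remaining receptors passed the threshold in neither treatment comparison. In SK-OV-3, IL18R1 (2.60 and 3.08 CPM), the IL-18 binding protein IL18BP (3.22 and 2.38 CPM), the inhibitory receptor SIGIRR (19.7 and 19.3 CPM), IL6R (20.8 and 23.3 CPM), IL6ST (150 and 145 CPM) and LIFR (27.9 and 28.7 CPM) were measured in DMSO and BAY-850. In PA-1, IL18BP (2.79 and 4.31 CPM), SIGIRR (4.41 and 4.15 CPM), IL6R (25.1 and 27.2 CPM), IL6ST (59.0 and 55.1 CPM), LIFR (47.7 and 42.0 CPM) and CSF1R (0.806 and 0.812 CPM) were measured likewise. CSF1R had at most 2 counts in a SK-OV-3 library, where its ligand CSF1 was high.

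The 90 other genes of these pathways, in 6 lists, were examined in both lines. In SK-OV-3, 17 of the 64 tested were higher and 7 lower with BAY-850, where 10.8% of the 15348 genes tested were higher and 9.56% lower. The 17 include IL36B and IL36RN, which passed the filter only through the SK-OV-3 BAY-850 libraries. In PA-1, 4 of 55 were higher and 3 lower, where 4.65% of the 15212 genes tested were higher and 2.48% lower. The shares of each line also stand beside the counts of each single list. As the lists were chosen with earlier results of these libraries known, nothing is read from the list counts against these shares. The median log2 fold change over the lists was 0.045 in SK-OV-3 and 0.012 in PA-1, against -0.0091 and -0.0019 over all genes tested. Of the SK-OV-3 calls, 12 of 24 held in every alternative setting, as did 0 of the 7 in PA-1. The 12 include IL36B and IL36RN, each of which was fitted in 13 alternatives. Without SK-OV-3 DMSO replicate 2 or SK-OV-3 BAY-850 replicate 2 the calls were 11 higher and 4 lower. The lower calls were also 4 without SK-OV-3 DMSO replicate 3 or SK-OV-3 BAY-850 replicate 1. In PA-1 the lower calls dropped to 1 without any 1 of the DMSO libraries and to 0 without PA-1 BAY-850 replicate 2.

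Among other cytokines, 5 of 13 tested were higher in SK-OV-3 BAY-850 and 1 was lower, IL36B and IL36RN being counted among the 5. The chemokine CCL20 had the largest rise of a list gene with counts in every SK-OV-3 library, from 0.928 CPM ± 0.141 to 6.83 ± 1.17 (log2 2.89, SE 0.249, adjusted p = 1.44e-05, edgeR). TNF, the archetypal inflammatory cytokine, rose from 1.48 CPM ± 0.311 to 4.59 ± 0.330 (log2 1.65, adjusted p = 0.00108). IL11, an IL-6 family cytokine, fell from 40.9 CPM ± 5.55 to 18.6 ± 0.999 (log2 -1.12, adjusted p = 2.88e-05), and in PA-1, where it averaged 97.8 CPM in DMSO, it did not pass the threshold.

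Of the 11 signalling proteins of the IL-1 pathway, 3 rose and 1 fell in SK-OV-3. IRAK2, a kinase-like adaptor of the receptor complex, rose from 10.2 to 23.8 CPM (log2 1.23, SE 0.106, adjusted p = 1.44e-05, edgeR), and TAB2 (log2 0.23) and the brake TOLLIP (log2 0.30) rose less, the TOLLIP call being lost in 5 of 14 alternatives. IRAK1 fell in SK-OV-3 (log2 -0.26, adjusted p = 0.00638) and rose in PA-1 (log2 0.31, adjusted p = 0.00285). In PA-1, IRAK4 fell from 8.89 to 6.07 CPM (log2 -0.55, adjusted p = 0.0163), a call lost in 2 of 14 alternatives.

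Of 13 tested genes of cytokine processing and release, 4 rose and 1 fell in SK-OV-3. Caspase-1 (CASP1), which cleaves the IL-1β and IL-18 precursors, rose from 1.45 to 3.03 CPM (log2 1.08, SE 0.329, adjusted p = 0.0392, edgeR), a call lost in 7 of 14 alternatives. The pore-forming protein gene GSDME, listed under its older symbol DFNA5, rose from 15.4 to 26.7 CPM (log2 0.80, adjusted p = 4.51e-04), the protease ADAM17 from 30.7 to 38.2 CPM and CASP4 from 31.8 to 38.9 CPM. NEK7, a partner of the NLRP3 inflammasome, fell from 96.0 to 77.1 CPM. Of 14 alternatives, the CASP4 call was lost in 6, that of NEK7 in 4 and that of ADAM17 in 2. In PA-1, CASP1 had 0 counts in the DMSO libraries, and the calpain gene CAPN1 rose (log2 0.30, adjusted p = 0.0251), a call lost in 5 of 14.

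Of the 9 factors that act on cytokine mRNA stability, 3 rose and 2 fell in SK-OV-3. ZC3H12A (Regnase-1), which degrades IL6 mRNA, rose from 26.3 to 38.1 CPM (log2 0.55, SE 0.0943, adjusted p = 0.00194, edgeR). ZFP36L1 rose from 622 to 794 CPM (log2 0.37, adjusted p = 9.08e-05) and ZFP36L2 by a log2 of 0.17, whereas RC3H2 (log2 -0.31) and KHSRP (log2 -0.18) fell. Of 14 alternatives, the ZFP36L2 call was lost in 10, that of KHSRP in 7 and that of RC3H2 in 5. In PA-1, ZFP36L2 (log2 0.37) and KHSRP (log2 0.30) rose, and these calls, like that of IRAK1 in PA-1, were lost with scaling by library size alone.

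Of the 8 signal transducers of IL-6 and LIF, 2 rose in SK-OV-3. STAT3, the main transcription factor of that pathway, rose from 228 to 259 CPM (log2 0.20, adjusted p = 0.0202, edgeR), a call lost in 4 of 14 alternatives, and its inhibitor SOCS1 rose from 1.46 to 2.89 CPM (log2 1.00, adjusted p = 0.0426), a call lost in 6 of 14 alternatives. In PA-1, JAK2 fell from 14.2 to 10.0 CPM (log2 -0.50, adjusted p = 0.0246), a call lost in 7 of 14.

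**Figure D5:**
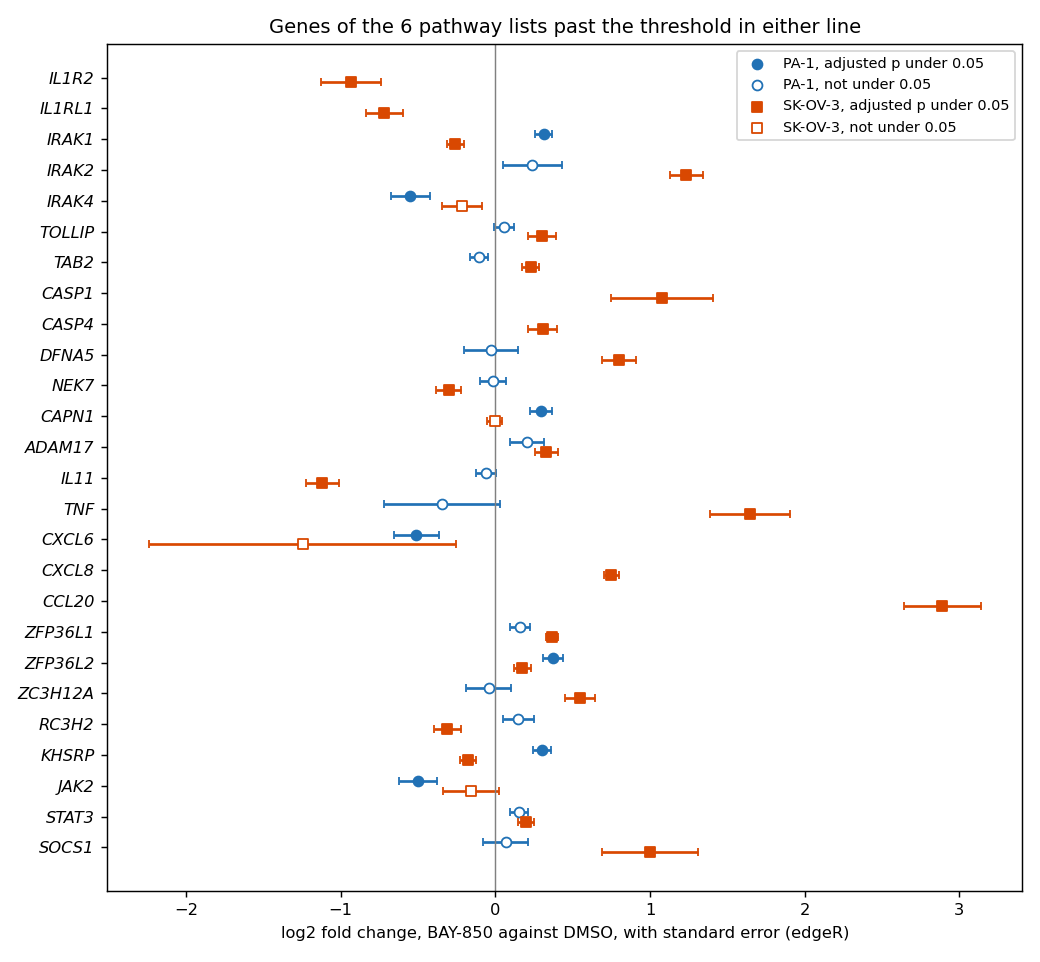
Log2 fold change of BAY-850 against DMSO, with its standard error from edgeR, for the 26 genes of the 6 pathway lists, IL36B and IL36RN aside, that passed the threshold in either line, in PA-1 (circles) and SK-OV-3 (squares). Filled symbols have an adjusted p under 0.05, and open symbols do not. CCL20 (2.89), TNF (1.65) and IRAK2 (1.23) lie farthest to the right in SK-OV-3 and IL11 (-1.12) lies to the left.

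Genes with a profile most like that of 4 of the cytokines were found by the root mean square difference of log2(CPM + 0.5), centred per gene, over the 12 libraries and among 14915 genes. For IL1B these were SAA1 (0.249), an acute-phase protein, LCN2 (0.346), an iron-binding defence protein, and DHRS3 (0.483). SAA1 averaged 1.89 CPM in SK-OV-3 DMSO and 14.6 CPM with BAY-850, and LCN2 averaged 3.49 and 24.9 CPM. Both were at most 0.310 CPM in each PA-1 library.

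For CSF1 the nearest were IRF9 (0.230), MYZAP (0.260) and ADGRE1 (0.263), and IRF9, a transcription factor of interferon signalling, averaged 42.9 CPM in SK-OV-3 DMSO and 89.7 CPM with BAY-850. For CXCL1 the nearest were CBR1 (0.230), DKK1 (0.299) and NNMT (0.313), each at 145 CPM or more in the SK-OV-3 libraries and at most 0.178 CPM in the PA-1 libraries. For IL6 the nearest were F3 (0.143), NLRP2 (0.158) and TWIST2 (0.189). These genes were picked for the likeness of their profile, which includes the SK-OV-3 difference, so their levels are a description.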

How the data were processed

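RNA was measured in 12 libraries (4 groups of 3). The authors deposited 1 table of RSEM expected counts per gene symbol. Per the labels, mRNA was purified with oligo-dT beads and libraries were strand-specific, whereas the series text states ribosomal RNA depletion. The submitters' processing notes name Bowtie2 2.1.0, RSEM 1.2.15 and hg38, with the annotation not given in the sources used here. Depth sets a floor of 3 counts, or 0.0559 to 0.0868 CPM, per library, and exact intervals at the 95% level cover counting error only.

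Expected counts were rounded. Genes were filtered with filterByExpr, scaled by TMM, and tested with the quasi-likelihood test of edgeR 4.0.16 (R 4.3.3) within PA-1, within SK-OV-3 and between the lines in DMSO, with Benjamini-Hochberg adjustment over all genes tested and a threshold of 0.05. P-values set the difference between groups against the spread between these libraries, and each tumour type had 1 line. Lengths are GENCODE v29 union exons. The script was tested on simulated data. Alternatives were DESeq2 1.42.0, other scalings and filters, a replicate block, 1 fit of all libraries and leaving out each library. The cytokines and pathway lists were chosen with earlier results of these data known. Named were all 10 cytokines, list genes past the threshold with a mean of at least 1 CPM in a group, each receptor above the filter and the 3 genes nearest in profile. IL36B and IL36RN, with mean levels under that limit, were named after their values were seen. So were the other cluster genes that passed the threshold in neither treatment comparison.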

Additional observations from a re-analysis of the deposited data

Results flagged for a closer look

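IRAK1, KHSRP and IL18BP moved in opposite directions in the lines, with every BAY-850 library above every DMSO library in PA-1 and below every DMSO library in SK-OV-3. The log2 fold changes were 0.31 in PA-1 and -0.26 in SK-OV-3 for IRAK1, 0.30 and -0.18 for KHSRP, and 0.64 and -0.42 for IL18BP, whose difference passed the edgeR threshold in neither line and was called by DESeq2 in PA-1. The difference between the lines was not tested. The scan covered the cytokines and the list genes past the threshold in either line, where tested in both, with IL18BP added by name. Of all genes tested, 14.1% were separated higher and 13.3% lower in PA-1, and 18.1% and 20.5% in SK-OV-3. The share of all genes separated in opposite directions was not counted, so nothing is read from these genes as a group. No cytokine of the set was separated in opposite directions in the lines.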

How the results depend on the processing

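In the DMSO libraries, 7 cytokines were higher in SK-OV-3 in edgeR with at least 10 counts asked of every library. Of all genes tested in the main fit, 40.1% were higher in SK-OV-3 and 40.2% lower. The main fit's count of 9 holds IL1B and IL6. The count of 10 with no filter or with all 12 libraries in 1 fit also holds IL1RN. These added genes enter only through SK-OV-3, where they are higher, and are described with no test. In PA-1, the count of cytokines past the threshold (0) became 2 with DESeq2 and with no filter, 1 with ribosomal RNA genes left out of the library size or at least 10 counts asked of every library, and 0 to 1 on leaving out a library (CXCL3 without PA-1 DMSO replicate 3, LIF without PA-1 BAY-850 replicate 3). List genes in PA-1 numbered 0 higher and 1 lower with library size alone, 1 lower with all 12 libraries in 1 fit, and 3 to 6 higher and 0 to 2 lower on leaving out a library. In SK-OV-3, leaving out a library gave 11 to 16 higher and 4 to 8 lower. On leaving out a library, CXCL1 in PA-1 ranged from -0.28 (reversed, without BAY-850 replicate 3) to 0.83, and CXCL2 in SK-OV-3, which sits near 0, reversed to 0.0051 without DMSO replicate 1 and to 0.0043 without BAY-850 replicate 3, with a lowest value of -0.047. The 5 cytokines separated in the higher direction in SK-OV-3 numbered 5 under each scaling and 5 to 6 on leaving out a library. Those separated in the lower direction were not counted again under these settings. The shares of all genes past the threshold were not counted under the alternatives either. The causes were not tested. The deviations of libraries with the same replicate number had correlations of -0.053 to 0.161, and the main fits did not treat numbers as pairs. Such correlations cannot show whether libraries were prepared in pairs. The replicate block gave 0 cytokines past the threshold in PA-1, and list counts of 4 higher and 2 lower in PA-1 and 13 and 6 in SK-OV-3. Between the lines in DMSO it gave 9, a count that holds IL1B and IL6, which are described with no test. IL1B, IL1RN and IL6 were left out of the PA-1 test by the filter on low counts.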
